A study of Mus musculus with 9 samples.

Results

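Transcripts of 9 genes of pericellular proteolysis were followed in mouse bone marrow-derived macrophages left untreated or given interleukin-4 (IL-4) or interleukin-27 (IL-27). They are Plau, which encodes the urokinase-type plasminogen activator, Plaur, its receptor, the tissue inhibitors of metalloproteinases Timp1, Timp2 and Timp3, and the matrix metalloproteinases Mmp8, Mmp12, Mmp14 and Mmp19. The 9 symbols were chosen by their family and by the expression differences between these same groups, seen in earlier results of these libraries. Levels and differences of the 9 genes are therefore given as a description, and where calls of the fit over all genes are named for them, nothing is read from these calls. All 9 were found among the 16200 genes of the count table, and all 9 were among the 12587 genes with enough counts to be tested.

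In the plasminogen system, urokinase bound to its receptor at the cell surface cleaves plasminogen to plasmin, a broad serine protease that dissolves fibrin and activates several pro-metalloproteinases. Matrix metalloproteinases are zinc enzymes that cut collagens, elastin and other matrix proteins, and the TIMP proteins bind and block their active sites. Macrophages make several members of both systems during tissue remodelling, among them metalloelastase, the product of Mmp12.

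The cells were of wild-type genotype and were grown for 6 days in medium with 10% supernatant of L929 cells, a mouse fibroblast line whose supernatant supplies macrophage growth factor. The 3 groups hold 3 libraries each: untreated cells, cells given IL-4 at 20 ng/ml for 12 h, and cells given IL-27 at 100 ng/ml for 6 h. IL-4 is a type 2 cytokine that drives alternative activation of macrophages, and IL-27 is a cytokine of the interleukin-12 family. Dose and duration differed between the cytokines, so the cytokine and the time of exposure cannot be told apart in any comparison of the treated groups. The labels give 1 stimulation text for all libraries, from which neither the harvest time of the untreated cells nor a possible addition of IL-4 to the IL-27 cells can be read. The libraries are described as replicate experiments without a statement on separate animals, so p-values measure the spread between these libraries. In bulk RNA, fewer cells of a type and less RNA per cell cannot be told apart.

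RefSeq promoter windows on GRCm38.p6, from 250 bases before to 50 bases after a transcript start, were found for 7 of the 9 genes. No window was found for Plau or Mmp19, so neither was searched for motifs. The 250 upstream bases are shown for 3 genes that stood higher after IL-27 (Plaur, Timp1 and Timp3) and for the pair that moved in opposite directions after IL-4 (Mmp8 and Mmp14), 5′ to 3′ with any AP-1 match in capitals.
Plaur (chr7:24462233-24462482, plus strand): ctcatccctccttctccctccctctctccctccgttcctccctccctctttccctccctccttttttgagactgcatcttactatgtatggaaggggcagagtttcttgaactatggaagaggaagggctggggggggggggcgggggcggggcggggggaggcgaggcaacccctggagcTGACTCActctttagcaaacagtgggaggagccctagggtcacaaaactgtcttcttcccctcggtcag
Timp1 (chrX:20869916-20870165, plus strand): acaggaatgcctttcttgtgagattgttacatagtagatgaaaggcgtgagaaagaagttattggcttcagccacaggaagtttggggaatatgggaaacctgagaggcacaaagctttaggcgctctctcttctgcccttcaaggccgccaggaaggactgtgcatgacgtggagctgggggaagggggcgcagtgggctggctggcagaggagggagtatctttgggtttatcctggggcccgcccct
Timp3 (chr10:86300162-86300411, plus strand): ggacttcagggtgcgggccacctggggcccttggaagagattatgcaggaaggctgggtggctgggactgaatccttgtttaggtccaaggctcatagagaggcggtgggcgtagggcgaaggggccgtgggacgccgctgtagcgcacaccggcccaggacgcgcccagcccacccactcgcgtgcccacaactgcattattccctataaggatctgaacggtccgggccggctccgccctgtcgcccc
Mmp8 (chr9:7558179-7558428, plus strand): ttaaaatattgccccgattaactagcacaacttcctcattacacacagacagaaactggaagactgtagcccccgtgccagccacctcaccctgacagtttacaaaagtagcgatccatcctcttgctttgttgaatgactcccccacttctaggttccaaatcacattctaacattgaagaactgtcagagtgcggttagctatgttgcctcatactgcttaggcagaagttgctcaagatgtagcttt
Mmp14 (chr14:54431348-54431597, plus strand): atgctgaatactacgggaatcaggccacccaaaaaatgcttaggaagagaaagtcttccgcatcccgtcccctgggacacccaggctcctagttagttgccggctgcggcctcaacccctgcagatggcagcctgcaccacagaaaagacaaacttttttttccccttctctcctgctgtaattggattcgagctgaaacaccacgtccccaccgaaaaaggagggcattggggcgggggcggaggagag

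Only Plaur, of these 5 stretches, held a match to TGANTCA, the consensus of AP-1 (dimers of Fos, Jun and related proteins), at positions -69 to -63 from the start. Timp1 held the related letters TGAGTAA at 27 to 33 bases after its start, outside the printed stretch. The second of 2 windows of Mmp12 held TGAGTCA at -44 to -38. On both strands, TGANTCA occurred in 7.81% and TGAGTAA in 2.68% of all 32851 windows of this length. Motifs of STAT transcription factors were searched as well, the GAS motif and a form of it with a wider gap. No window of the 7 genes held either of them, where 8.3% and 6.95% of all windows did. These matches, and their absence, describe letters in a short window and not binding.

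Total counts ranged from 34577188 to 37951827 per library, with 14001 to 14326 genes detected. Untreated replicate 2 and IL-4 replicate 1 stood apart from the other libraries of their groups: the chi-square per gene was 121 to 152 in pairs that held one of them and 6.04 to 10.2 in the other pairs. Over 9553 genes, log2 deviations from the group mean correlated at 0.906 between this pair, a description across genes. Summed macrophage markers (10 of 10 in the table and tested), most of it Lyz2, reached 23180 to 32150 CPM (counts scaled to the library total and its TMM factor) in untreated, 15480 to 19010 in IL-4 and 24570 to 26800 in IL-27 libraries. In IL-27 against untreated libraries 0 of these 10 were called higher and 5 lower, where 14.0% and 15.1% of all tested genes were: Csf1r (2729 ± 469 to 1414 ± 35.7 CPM, SD, n = 3), Adgre1, Mertk, Cd14 and Fcgr1, the last not called without untreated replicate 2 or 3, IL-4 replicate 2 or 3 or any IL-27 library (edgeR adjusted p up to 0.151). In IL-4 against untreated libraries 1 was called higher and 4 lower, where 12.9% and 12.0% of all tested genes were. The part of these markers in the results was not tested. Fibroblast markers, 9 of 10 of them tested, summed to 728 to 827 CPM in untreated cells, 558.5 to 758 in IL-4 and 1091 to 1372 in IL-27 libraries. Col1a1, Col1a2, Col3a1, Dcn and Pdgfrb, 5 of these 9, were called higher in IL-27 than in untreated libraries, where 14.0% of all tested genes were called higher, Col1a1 no longer without untreated replicate 1 or 3 or IL-27 replicate 1 or 2 (adjusted p up to 0.115). Neutrophil markers summed to at most 9.52 CPM in any library, dendritic cell markers to at most 2.07 CPM, lymphocyte markers to at most 0.818 CPM and mast cell, basophil and eosinophil markers to at most 0.392 CPM.

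Per length, on the deposited FPKM scale (counts divided by gene length and by the library total), Mmp12 was the most abundant of the 9 genes in every group and Mmp8 the least. In untreated cells the mean FPKM ran from Mmp12 (751 ± 173, SD, n = 3) through Timp2 (187 ± 2.87), Plaur (131 ± 9.54), Plau (119 ± 6.92), Mmp19 (51.2 ± 5.30), Mmp14 (45.5 ± 0.272), Timp1 (38.7 ± 2.33) and Timp3 (16.6 ± 2.44) to Mmp8 (0.601 ± 0.141). Of the neighbours in that order only Plaur and Plau had overlapping ranges. In IL-27 cells Plau moved up to second place at 391 ± 25.4 FPKM, ahead of Timp2 at 234 ± 10.8, Plaur at 192 ± 3.64 and Mmp19 at 168 ± 3.15. Mmp14, at 49.3 ± 3.33 FPKM, then stood below Timp1 (129 ± 20.8) and Timp3 (89.95 ± 9.29), both of which it exceeded in untreated cells. In IL-4 cells Mmp14, at 18.5 ± 2.06 FPKM, stood below Timp1 (40.6 ± 1.43 FPKM), and its range overlapped that of Timp3 (14.2 ± 2.02). Mmp12 was the 60th most abundant gene of the table by mean FPKM in untreated, the 46th in IL-4 and the 55th in IL-27 cells.

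Plau, the activator itself, was more abundant in IL-27 cells than in either other group. It reached 849, 922 and 968.5 CPM in the 3 IL-27 libraries, against 255.5, 316.5 and 253 CPM in untreated libraries and 333, 262.5 and 272 CPM in IL-4 libraries. The IL-27 values lay far above the other 6, and the untreated and IL-4 values overlapped. On the log2 scale the difference was 1.73 ± 0.13 (SE) from untreated, a 3.32-fold higher level, and 1.66 ± 0.13 from IL-4. IL-4 and untreated cells differed by 0.07 ± 0.12, within the error.

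Plaur, the receptor that holds urokinase on the cell surface, moved in the same direction by a smaller step. Its levels were 305, 302 and 309 CPM in IL-27, 184.5, 241 and 195 CPM in untreated cells, and 190.1, 151 and 152 CPM in IL-4 libraries. No IL-27 library overlapped another group, whereas the highest IL-4 library, replicate 1, lay inside the untreated range. The log2 difference of IL-27 was 0.56 ± 0.12 from untreated and 0.89 ± 0.12 from IL-4, and that of IL-4 from untreated was -0.33 ± 0.12. The ratio of Plau to Plaur in FPKM, which needs no scaling between libraries, was 0.906 ± 0.032 (SD, n = 3) in untreated, 1.20 ± 0.016 in IL-4 and 2.04 ± 0.124 in IL-27 cells. The 3 ranges of this ratio did not overlap, with 0.881 to 0.942 in untreated, 1.18 to 1.21 in IL-4 and 1.90 to 2.13 in IL-27 libraries. Per length there was thus less ligand than receptor mRNA in each untreated library and more in each treated library.

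**Figure D1:**
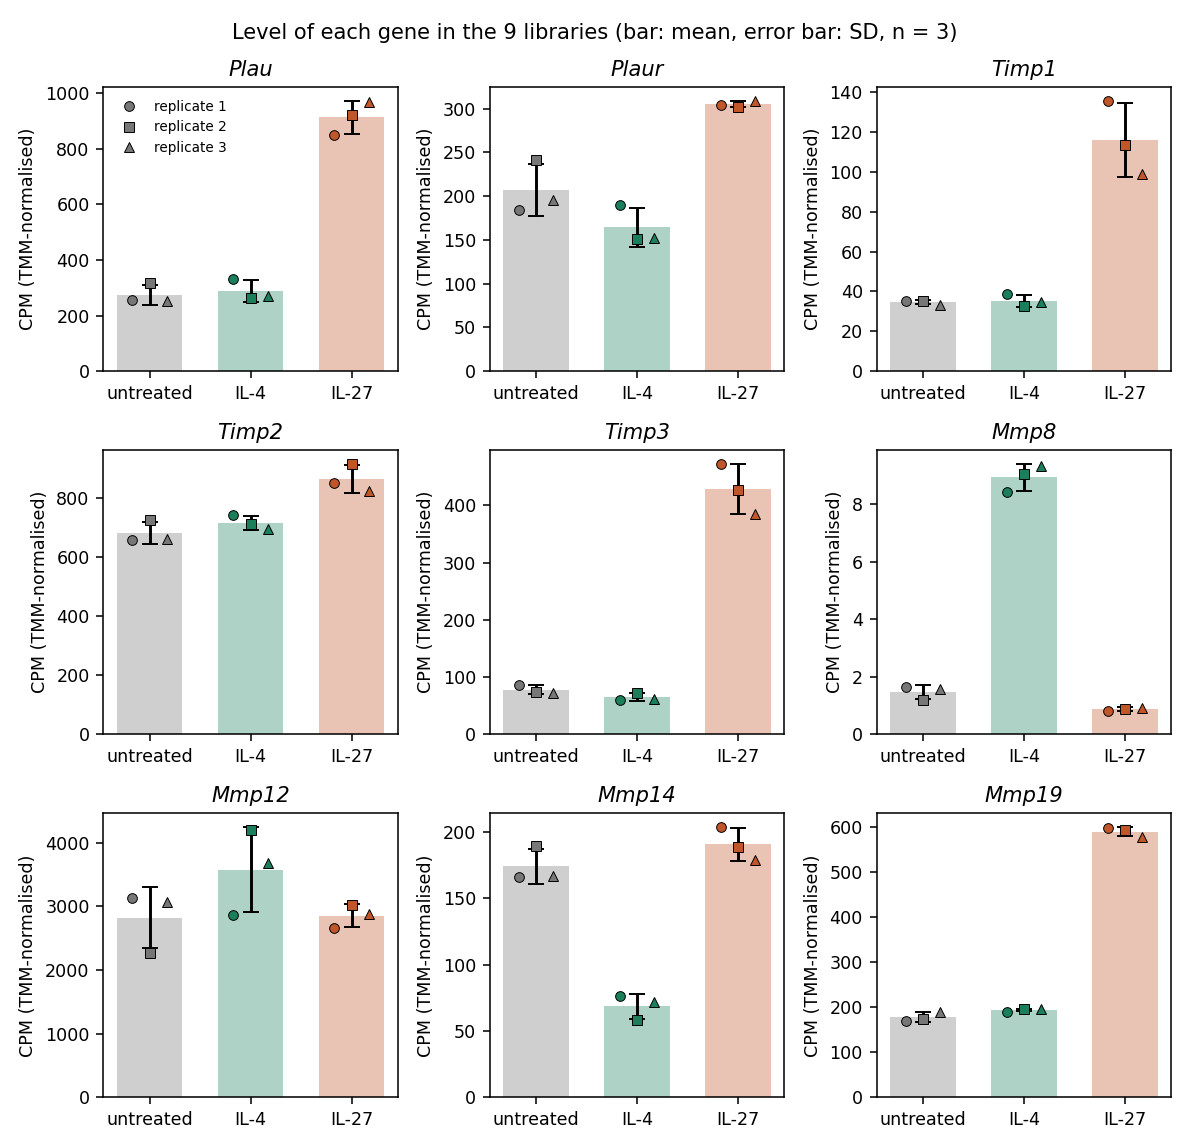
Level of each of the 9 genes in TMM-scaled CPM (linear y axis, from 0) by group, with 1 point per library, bars for the group mean and error bars for the SD (n = 3). Plau, Timp1, Timp3 and Mmp19 stand apart in the IL-27 libraries, Mmp8 is high and Mmp14 low in the IL-4 libraries, and the Mmp12 ranges overlap.

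Among the inhibitors, Timp3, whose protein binds to the matrix and also blocks ADAM17, showed the largest difference. Its levels were 473, 427 and 386 CPM in IL-27 libraries against 86.9, 74.1 and 72.96 CPM in untreated libraries and 60.4, 72.4 and 61.6 CPM in IL-4 libraries. The log2 difference of IL-27 was 2.46 ± 0.12 from untreated (5.50-fold) and 2.73 ± 0.12 from IL-4 (6.61-fold). The IL-4 libraries lay just below the untreated ones, at -0.27 ± 0.11, with 72.4 as the highest IL-4 and 72.96 CPM as the lowest untreated value.

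Timp1, a secreted inhibitor induced in many inflamed tissues, was the second inhibitor that set the IL-27 libraries apart. It reached 136, 113.5 and 98.99 CPM in IL-27, 34.95, 35.1 and 33.3 CPM in untreated libraries and 38.5, 32.7 and 34.5 CPM in IL-4 libraries. The difference of IL-27 was 1.75 ± 0.12 from untreated and 1.72 ± 0.12 from IL-4 on the log2 scale, and IL-4 differed from untreated by 0.03 ± 0.12.

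Timp2, an inhibitor that also bridges pro-MMP2 to the Mmp14 product on the cell surface, was already abundant and differed less. Its levels were 849, 915 and 825 CPM in IL-27, 657, 724 and 661 CPM in untreated libraries and 741, 713 and 694 CPM in IL-4 libraries. The IL-27 libraries were all above the other 6, with log2 differences of 0.34 ± 0.08 from untreated and 0.27 ± 0.08 from IL-4. The IL-4 and untreated libraries overlapped in CPM, at 0.07 ± 0.08.

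The 3 inhibitors together came to 242 ± 7.38 FPKM (SD, n = 3) in untreated, 257 ± 7.21 in IL-4 and 452.5 ± 33.7 in IL-27 cells. Timp2 made up 77.2% ± 1.27 of that sum in untreated and 78.7% ± 0.288 in IL-4 cells but 51.8% ± 3.33 in IL-27 cells. The share of Timp1 was 16.0% ± 0.481, 15.8% ± 0.920 and 28.3% ± 2.63 in the same order, and that of Timp3 6.86% ± 0.804, 5.52% ± 0.641 and 19.9% ± 0.723. The fibroblast markers given above moved with the IL-27 group beside Timp1 and Timp3. Their summed level was 1091 to 1372 CPM in IL-27 and at most 827 CPM in the other libraries, and their part in the differences of the inhibitors was not tested. All 10 fibroblast markers except Postn had a higher mean in IL-27 than in untreated libraries, among them Col1a2 (628 ± 65.01 against 383.5 ± 21.7 CPM), Dcn (34.6 ± 11.6 against 7.65 ± 1.81 CPM) and Pdgfrb (23.96 ± 4.19 against 10.1 ± 1.24 CPM). Lum and Thy1 had means under 1 CPM in every group.

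**Figure D2:**
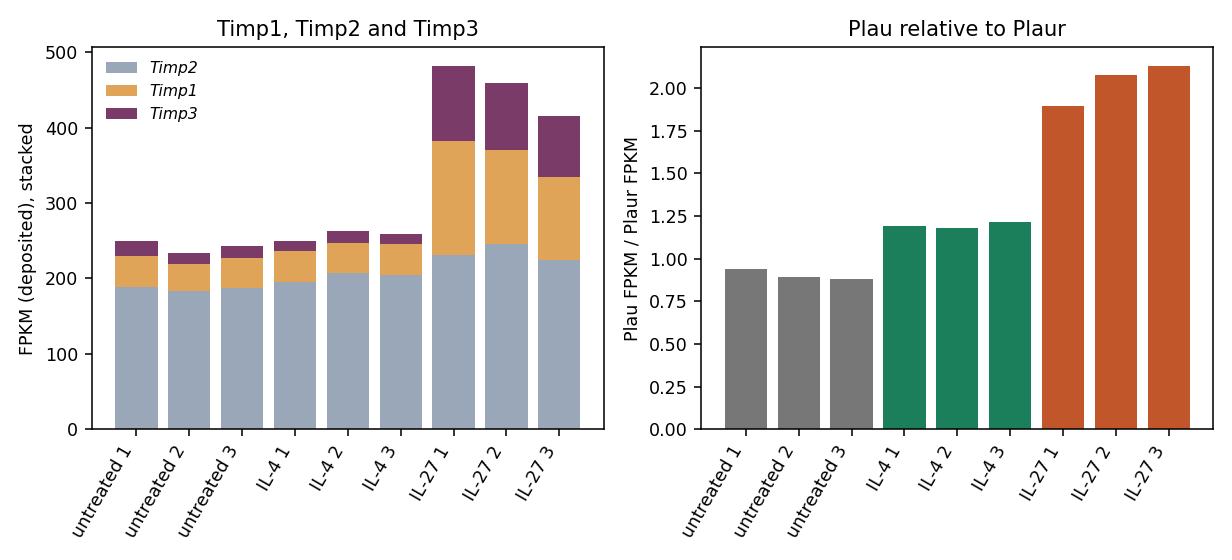
Left, deposited FPKM of Timp2, Timp1 and Timp3 stacked for each of the 9 libraries (linear axis from 0). Right, the ratio of Plau to Plaur in FPKM in the same libraries; the inhibitor sums of the IL-27 libraries run from 416 to 482.5 FPKM against 234 to 263 in the other 6, and the ratio is under 1 in the untreated libraries alone.

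The 4 metalloproteinases followed 4 different patterns. Mmp8, an interstitial collagenase best known from neutrophils, was lowest in abundance and highest in IL-4 cells. Its counts were 287, 363 and 367 in IL-4 libraries, 59, 39 and 57 in untreated and 30, 32 and 34 in IL-27 libraries, or 8.42, 9.06 and 9.34 CPM, 1.64, 1.18 and 1.59 CPM, and 0.818, 0.883 and 0.930 CPM. No library of a group overlapped another group. IL-4 exceeded untreated by 2.60 ± 0.18 on the log2 scale (6.07-fold) and IL-27 by 3.35 ± 0.19 (10.2-fold), and IL-27 lay 0.74 ± 0.20 below untreated. The last difference rests on under 60 counts a library. Of 11 neutrophil markers in the table, Elane, Mpo, Camp and Retnlg had at most 0.0293 CPM in any library. The summed neutrophil markers were 2.58 to 4.56 CPM in IL-4, 5.18 to 5.83 CPM in untreated and 9.14 to 9.52 CPM in IL-27 libraries. S100a8 made up most of this sum and set its order, at 2.28 ± 0.625, 4.09 ± 0.599 and 8.32 ± 0.723 CPM. Cxcr2, the only other neutrophil marker tested, had means in the order of Mmp8, at 0.890 ± 0.315 CPM in IL-4, 0.761 ± 0.297 in untreated and 0.493 ± 0.0483 in IL-27 libraries, and passed in none of the 3 comparisons. The part of neutrophils in the Mmp8 level was not tested.

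Mmp14, the membrane-anchored enzyme that activates pro-MMP2, was lower in IL-4 cells than in both other groups. It measured 76.2, 58.2 and 71.7 CPM in IL-4, 166, 189.6 and 167 CPM in untreated cells, and 204, 189 and 179 CPM in IL-27 libraries. The IL-4 libraries were all below the other 6, and the untreated and IL-27 libraries overlapped. IL-4 differed from untreated by -1.34 ± 0.12 on the log2 scale (2.54-fold lower), IL-27 exceeded IL-4 by 1.47 ± 0.12, and IL-27 differed from untreated by 0.13 ± 0.11. Relative to Timp2 in FPKM, Mmp14 stood at 0.244 ± 0.00508 (SD, n = 3) in untreated, 0.0914 ± 0.0118 in IL-4 and 0.211 ± 0.0163 in IL-27 cells.

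Mmp19, a secreted metalloproteinase, followed the pattern of Plau. Its values of 599, 593.5 and 578 CPM in IL-27 libraries were all above the 169, 174 and 190.2 CPM of untreated and the 190.5, 196 and 195.5 CPM of IL-4 libraries. The log2 difference of IL-27 was 1.73 ± 0.08 from untreated (3.32-fold) and 1.61 ± 0.08 from IL-4. IL-4 libraries were above untreated ones by 0.13 ± 0.08 without overlap, the nearest values being 190.5 and 190.2 CPM.

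Mmp12, the macrophage metalloelastase, held 0.283% ± 0.0654 (SD, n = 3) of all counts in untreated, 0.369% ± 0.0868 in IL-4 and 0.280% ± 0.0156 in IL-27 cells. Its levels of 3136, 2266 and 3061 CPM in untreated cells, 2864, 4193 and 3677 CPM in IL-4 and 2662, 3019 and 2879 CPM in IL-27 libraries overlapped in all 3 comparisons. The log2 differences were 0.34 ± 0.16 for IL-4 from untreated, 0.02 ± 0.16 for IL-27 from untreated and -0.33 ± 0.16 for IL-27 from IL-4. Of the summed FPKM of the 4 metalloproteinases, Mmp12 made up 88.2% ± 2.25 in untreated, 92.2% ± 1.51 in IL-4 and 77.3% ± 1.46 in IL-27 cells.

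Read against all genes, 1 of the 9 genes (Mmp8) was called higher and 1 (Mmp14) lower in IL-4 than in untreated cells by edgeR at an adjusted p under 0.05, where 25.0% of the 12587 tested genes were called (12.9% higher and 12.0% lower). In IL-27 against untreated cells 6 were called higher and Mmp8 lower, where 29.2% of tested genes were called (14.0% higher and 15.1% lower). In IL-27 against IL-4 cells 7 were called higher and Mmp8 lower, where 39.8% of tested genes were called (18.8% higher and 21.0% lower). Values of the compared groups did not overlap for 4, 7 and 8 of the 9 genes in these comparisons, against 36.0%, 52.2% and 56.7% of tested genes. Because the genes were chosen with these differences known, nothing is read from their counts. The median log2 difference of the 9 genes was 0.07, 0.56 and 1.47, beside -0.01, 0.00 and 0.01 over all tested genes. The untreated libraries serve the first 2 of these comparisons, and the treated ones are shared with the third.

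**Figure D3:**
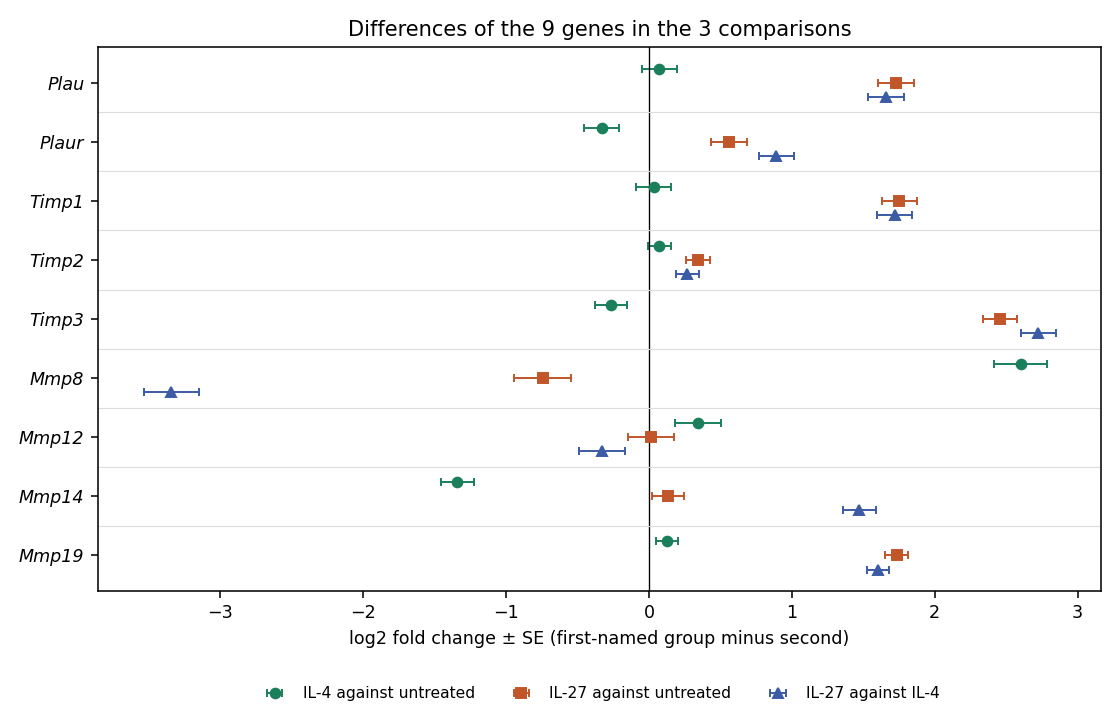
Log2 fold change of the 9 genes in the 3 comparisons, with bars for the SE of the fit over 9 libraries, the first-named group minus the second. The IL-27 differences of Plau, Timp1 and Mmp19 lie between 1.61 and 1.75 against either group, Timp3 lies at 2.46 and 2.73, and Mmp8 and Mmp14 carry the IL-4 differences.

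The 2 libraries that stood apart did so in some of these genes as well, among them Plau, Plaur and Mmp12. Mmp12, whose longest transcript has a GC content of 40.3% (percentile 6.6 of tested genes), deviated by -0.45 in untreated replicate 2 and by -0.46 in IL-4 replicate 1 from the mean of the other libraries of the group on the log2 scale. Plau deviated by 0.31 and 0.32, Plaur by 0.34 and 0.33 and Mmp14 by 0.19 and 0.24 in the same 2 libraries. IL-4 replicate 2 deviated more in Mmp14, by -0.34. Mmp19 deviated by -0.05 and -0.04 in the 2 libraries and by 0.15 in untreated replicate 3. Timp3 deviated most in untreated replicate 1 (0.24) and IL-4 replicate 2 (0.25). Without both libraries the log2 difference of Mmp12 was 0.35 for IL-4 from untreated, -0.12 for IL-27 from untreated and -0.47 for IL-27 from IL-4, and all 3 differences were then called. Plaur, Timp3 and Mmp19 were then also called in IL-4 against untreated cells, at log2 differences of -0.32, -0.25 and 0.13, and Mmp14 in IL-27 against untreated cells, at 0.19. Calls rose over all genes in that setting, from 1630 higher and 1515 lower to 3061 and 2848 in IL-4 against untreated cells. In IL-27 against untreated cells they rose from 1766 and 1904 to 3089 and 3224. Without IL-4 replicate 1 alone, Plaur (-0.45) and Mmp12 (0.48) were called in IL-4 against untreated and Mmp12 (-0.47) in IL-27 against IL-4 cells. Without both libraries Plau, Timp3 and Mmp19 stood 1.84, 2.42 and 1.71 higher on the log2 scale in IL-27 than in untreated cells, close to the values with them.

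**Figure D4:**
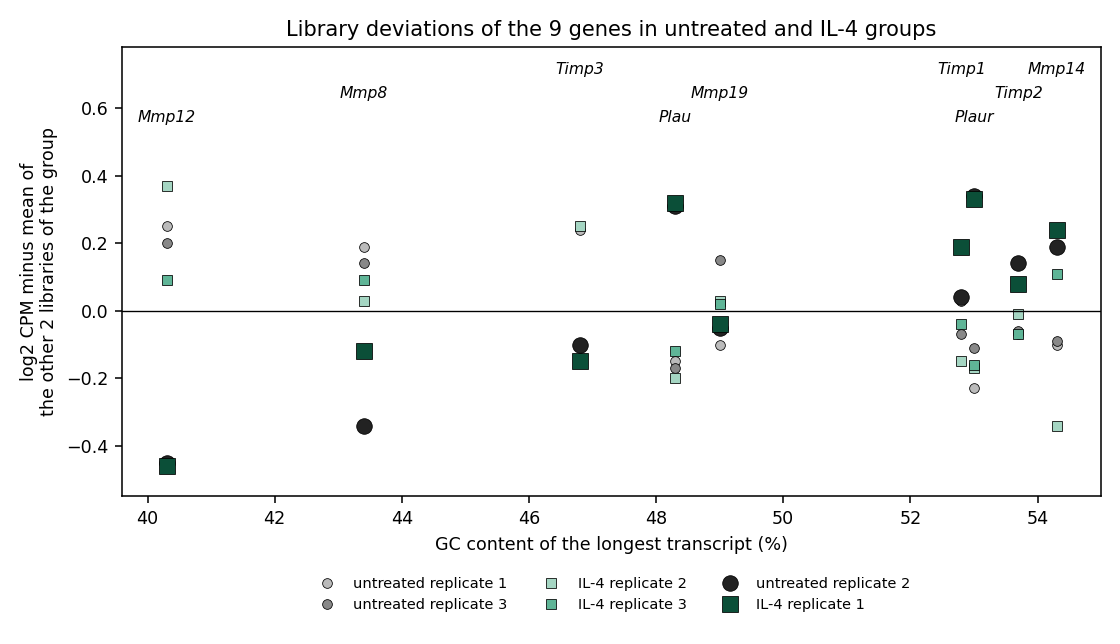
Deviation of each untreated and IL-4 library from the mean of the other libraries of its group (log2 CPM) against the GC content of the longest transcript of the 9 genes. Untreated replicate 2 and IL-4 replicate 1, the large symbols, lie close together at Plau, Plaur, Mmp12, Mmp14 and Mmp19 and farther apart at Mmp8 (-0.34 and -0.12) and Timp1 (0.04 and 0.19).

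Beyond Plau and Plaur, 10 further genes of the plasminogen system were tested. In IL-27 against untreated cells 4 rose, 1 fell and 5 did not pass, where 29.2% of all tested genes were called. Their median log2 difference was -0.01 in that comparison, -0.42 in IL-4 against untreated and 0.28 in IL-27 against IL-4 cells. Serpinb2, a serpin that inhibits urokinase, rose from 21.8 ± 1.52 to 53.2 ± 7.04 CPM (SD, n = 3), a log2 fold change of 1.29 ± 0.21 (SE) with an edgeR adjusted p of 0.0012. Plat, the tissue plasminogen activator, rose from 2.04 ± 0.260 to 5.78 ± 1.25 CPM (adjusted p = 0.00303). Serpine2, a further serpin that inhibits urokinase, rose from 12.9 ± 2.10 to 25.05 ± 5.31 CPM (adjusted p = 0.00723). Mrc2, an endocytic collagen receptor chosen after its values were seen, also rose (adjusted p = 0.0158). Without untreated replicate 1, untreated replicate 3 or IL-27 replicate 1, Mrc2 did not pass (adjusted p = 0.052, 0.0558 and 0.0718). Anxa2, which with S100a10 binds plasminogen at the cell surface, was at 459 ± 11.1 CPM against 584 ± 79.7 and passed at an adjusted p of 0.0475, which 8 of 17 alternative analyses did not keep, among them each one without an IL-27 library, untreated replicate 1 or 2, or IL-4 replicate 2 or 3 (adjusted p up to 0.137). Plg, Cpb2 and Vtn were not analysed here. The fibroblast markers moved with these genes in the IL-27 libraries (1091 to 1372 CPM against 728 to 827 CPM in untreated libraries), and their part in the result was not tested.

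In IL-4 against untreated cells 2 of the 10 genes rose, 3 fell and 5 did not pass, where 25.0% of all tested genes were called. Anxa2 rose to 874 ± 101 CPM (log2 fold change 0.58 ± 0.12, edgeR adjusted p = 0.00501) and S100a10 rose from 77.8 ± 5.68 to 103.5 ± 5.48 CPM (0.41 ± 0.09, adjusted p = 0.00638). Serpinb2, Serpine2 and St14, the membrane protease matriptase, passed near the threshold at adjusted p of 0.033, 0.0337 and 0.042, and lost the call in 7, 7 and 9 of 17 alternatives. Serpinb2 did so without untreated replicate 1 or 3, IL-4 replicate 3 or IL-27 replicate 3 (adjusted p up to 0.0953), and Serpine2 without untreated replicate 2 or 3, IL-4 replicate 2 or 3 or IL-27 replicate 2 (up to 0.116). St14 did so without untreated replicate 2 or 3, IL-4 replicate 2 or 3 or any IL-27 library (up to 0.138). In IL-27 against IL-4 cells 4 of the 10 rose and 3 fell, with Serpinb2 1.99 ± 0.21 higher on the log2 scale (adjusted p = 4.69e-05) and Anxa2 0.93 ± 0.12 lower (adjusted p = 1.48e-04), and 39.8% of all tested genes were called. The receptor gene Plaur was lowest on average in IL-4 and highest in IL-27 cells, as were Serpinb2, Serpine2, Plat and Mrc2 of the 10 genes. The rest of the 10 did not have this order.

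Of 8 integrin chains that are known partners of the urokinase receptor, 1 rose and 1 fell after IL-4, and 3 rose and 5 did not pass after IL-27, with 25.0% and 29.2% of all tested genes called and list medians of 0.15 and 0.12 on the log2 scale. Itgb3, the beta chain of the vitronectin receptor, rose after both cytokines, from 131 ± 15.6 CPM to 373.5 ± 69.6 after IL-4 (log2 fold change 1.51 ± 0.14, edgeR adjusted p = 4.84e-05) and to 419.5 ± 19.8 after IL-27 (1.68 ± 0.14, adjusted p = 1.8e-05). Itga5, part of the fibronectin receptor, rose after IL-27 from 166 ± 13.3 to 253 ± 7.18 CPM (0.61 ± 0.09, adjusted p = 8.42e-04). Itgav passed in the same comparison (adjusted p = 0.0244) and was lost in 5 of 17 alternatives, 4 of them without untreated replicate 2 or any IL-27 library (adjusted p up to 0.0724). Itga3, at under 1 CPM, passed after IL-4 (adjusted p = 0.0196) and was lost in 5 of 16 alternatives, as without untreated replicate 1 or 2 or IL-4 replicate 2 or 3 (adjusted p up to 0.0703). The integrin chains Itgam and Itgb2 of complement receptor 3, which pairs with Plaur on myeloid cells, did not pass against untreated cells. They measured 1421 ± 104 and 2506 ± 602 CPM in untreated cells, 1529 ± 117 and 2663 ± 650 CPM in IL-4 and 1245 ± 28.9 and 2382 ± 111 CPM in IL-27 cells. In IL-27 against IL-4 cells 2 chains were higher and 1 lower, where 39.8% of all tested genes were called. Itga5 (adjusted p = 0.00541) and Itga3 (0.0463, lost in 11 of 16 alternatives) were higher. Itgam was lower (-0.30 ± 0.09, adjusted p = 0.0258) and lost its call in 5 of 17 alternatives, among them each without an IL-27 library (up to 0.0951).

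Among 11 other metalloproteinases with enough counts, 1 rose and 1 fell after IL-4 (list median -0.39 on the log2 scale), and 2 rose and 9 did not pass after IL-27 (median 0.62). In IL-27 against IL-4 cells 4 rose and 1 fell (median 0.88). The shares of all tested genes called in these comparisons were 25.0%, 29.2% and 39.8%, beside 18.2%, 18.2% and 45.5% of this list. Mmp13, a collagenase, rose after IL-4 from 5.85 ± 0.863 to 30.2 ± 10.5 CPM (log2 fold change 2.37 ± 0.24, edgeR adjusted p = 8.94e-05) and stood at 7.84 ± 0.467 CPM after IL-27. It shared with Mmp8, also a collagenase, the highest level in IL-4 cells. Mmp17, at 0.666 CPM in untreated cells, fell after IL-4 (adjusted p = 0.0225), which 7 of 16 alternatives did not keep, as without untreated replicate 1 or 3 or IL-4 replicate 1 or 2 (adjusted p up to 0.0701). The gelatinases Mmp2 and Mmp9 rose after IL-27, Mmp2 from 20.4 ± 1.46 to 41.3 ± 4.62 CPM (1.02 ± 0.15, adjusted p = 7.44e-04) and Mmp9 from 10.5 ± 1.61 to 25.8 ± 2.97 CPM (1.30 ± 0.22, adjusted p = 0.00178). Mmp2 is the enzyme that the Mmp14 product activates, and it stood at 18.5 ± 3.72 CPM in IL-4 cells, where Mmp14 was lowest. Mmp2 did not pass in IL-4 against untreated cells (-0.14 ± 0.15, adjusted p = 0.547), and its values overlapped. The fibroblast markers moved with Mmp2 and Mmp9 in the IL-27 libraries, and their part was not tested. Of the other MMP inhibitors, Reck was the only one tested and did not pass in any comparison, and Timp4 and A2m were at 0 in all but 1 library each. Mmp1a and Mmp20 were not analysed here.

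**Figure D5:**
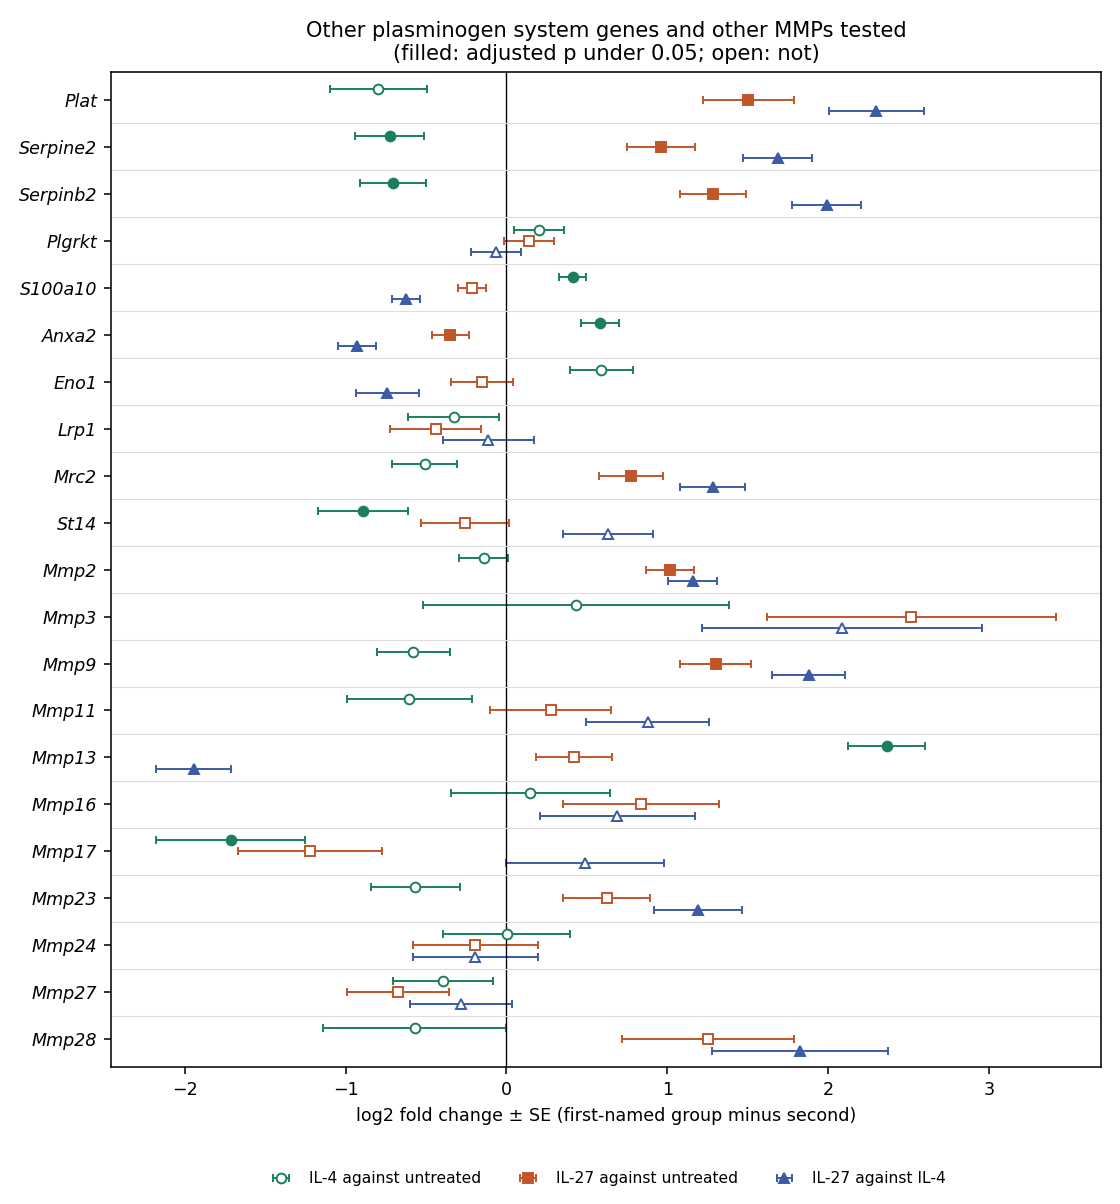
Log2 fold change with SE of 10 other plasminogen system genes and 11 other metalloproteinases tested, by comparison, with filled symbols for an edgeR adjusted p under 0.05 and open ones for the rest. Serpinb2, Serpine2, Plat, Mmp2 and Mmp9 lie to the right after IL-27, and Mmp13 lies to the right after IL-4.

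ADAM and ADAMTS proteases, several of which Timp3 inhibits, changed in both directions. Of 12 tested, 4 rose and 2 fell after IL-4 (list median 0.55 on the log2 scale), 3 rose and 2 fell after IL-27 (median 0.07), and 3 were higher and 6 lower in IL-27 than in IL-4 cells (median -0.39). Over all tested genes 25.0%, 29.2% and 39.8% were called in these comparisons. Adam8, a myeloid sheddase, rose after IL-4 from 767 ± 183 to 1661 ± 399.5 CPM (edgeR adjusted p = 0.00208). Adam9 rose from 173 ± 4.47 to 216 ± 7.90 CPM (adjusted p = 0.00863), and Adam17, the sheddase of tumour necrosis factor, fell from 254 ± 4.87 to 204 ± 6.84 CPM (adjusted p = 0.00961, and 0.0528 in a fit of the 2 groups alone). After IL-27 Adam12 rose from 0.236 ± 0.160 to 2.24 ± 1.01 CPM (adjusted p = 0.00246), Adamts4 rose from 0.760 ± 0.358 to 2.81 ± 0.404 CPM (adjusted p = 0.00446) and Adamts10 fell from 28.9 ± 9.50 to 11.2 ± 0.766 CPM (adjusted p = 0.00708). Adam17 stood at 229 ± 7.28 CPM in IL-27 cells and did not pass there (adjusted p = 0.143).

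Matrix proteins that these enzymes cut were counted from a list of 15 tested genes, of which 11 rose and 4 did not pass in IL-27 against untreated cells, beside 14.0% of all tested genes called higher. Their median log2 difference was 0.79 in that comparison, -0.33 in IL-4 against untreated and 1.11 in IL-27 against IL-4 cells. Tnc, the matrix glycoprotein tenascin C, rose from 27.8 ± 5.29 to 109 ± 14.1 CPM (log2 fold change 1.96 ± 0.16, edgeR adjusted p = 1.72e-05) and Col5a1 from 40.35 ± 5.71 to 133 ± 20.8 CPM (1.72 ± 0.14, adjusted p = 1.72e-05). Sparc rose from 122 ± 2.81 to 226 ± 27.2 CPM (0.89 ± 0.10, adjusted p = 1.32e-04). After IL-4 2 rose and 3 fell, where 25.0% of all tested genes were called. Spp1, or osteopontin, rose from 1627 ± 52.9 to 2239 ± 103 CPM (adjusted p = 0.00414) and Fn1, fibronectin, from 518 ± 126 to 1118 ± 287 CPM (adjusted p = 0.00324). Thbs1, thrombospondin 1, fell from 203 ± 14.3 to 93.4 ± 4.94 CPM (adjusted p = 3.98e-05). Several of the risers after IL-27 are made in quantity by fibroblasts, whose markers were 1091 to 1372 CPM in these libraries against 728 to 827 CPM in untreated ones. Their part in the counts of matrix genes was not tested.

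AP-1 subunits were counted because the Plaur window holds an AP-1 match. Of 9 tested, 4 rose and 5 did not pass after IL-4 (list median 0.22 on the log2 scale), and 1 rose and 4 fell after IL-27 (median -0.12), where 25.0% and 29.2% of all tested genes were called. In IL-27 against IL-4 cells 1 was higher and 6 were lower (median -0.34), where 39.8% of all tested genes were called. Batf3, Fosl2 and Fos differed there by -4.385, -1.83 and -1.06 on the log2 scale, and Plaur by 0.89. The part of AP-1 in the Plaur level was not tested. After IL-4 Batf3 rose from 5.08 ± 0.566 to 33.1 ± 5.54 CPM (edgeR adjusted p = 1.22e-05), Fosl2 rose from 57.05 ± 3.04 to 151 ± 11.2 CPM (adjusted p = 6.4e-06) and Jun rose from 211 ± 14.1 to 284 ± 28.2 CPM (adjusted p = 0.00776). After IL-27 Fos fell from 61.5 ± 2.71 to 30.9 ± 3.05 CPM (adjusted p = 8.76e-05) and Batf3 to 1.58 ± 0.451 CPM (adjusted p = 2.77e-04). Junb also fell, from 161 ± 3.45 to 121 ± 1.59 CPM (adjusted p = 0.00198). Fosl1, the riser, chosen after its values were seen, went from 1.78 ± 0.483 to 3.46 ± 0.562 CPM (adjusted p = 0.0231) and stood at 1.20 ± 0.269 CPM after IL-4. Its call against untreated cells was lost in 5 of 17 alternatives, with the replicate block (adjusted p = 0.0548) and without untreated replicate 1 or 3 or IL-27 replicate 1 or 3 (up to 0.0908).

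The genes whose log2 CPM was most like that of each member over the 9 libraries were taken from those with a mean of at least 5 CPM, about 9398 candidates for each. These correlations are a description: the libraries fall into 3 groups and share their depth and handling. Irf1, an interferon-induced transcription factor, was most like Plau (Pearson r = 0.9959), at 60.95 CPM in untreated cells, 60.95 CPM after IL-4 and 304.5 CPM after IL-27. Cd300lf came next (0.9947), at 9.24, 9.335 and 49.18 CPM in the same order, and 141 genes had an r over 0.95 with Plau. Zc3hav1, an antiviral RNA-binding protein, and Col5a3, a collagen chain, were most like Timp3 (0.9955 and 0.9953). Arhgef3 and Sesn2 were most like Timp1 (0.9948 and 0.9925), and Plpbp and Patl1 most like Mmp19 (0.9972 and 0.9953). Fam219a and Xdh followed Plaur (0.9962 and 0.9955), lowest in IL-4 and highest in IL-27 cells, with Xdh, xanthine dehydrogenase, at 301.5, 227 and 460.4 CPM in untreated cells, IL-4 and IL-27 cells. Anxa4 and Tanc2 were most like Mmp8 (0.9946 and 0.9941), Znrf1 and Plagl2 most like Mmp14 (0.9948 and 0.9944), and Uchl5 and Haus6 most like Mmp12 (0.9918 and 0.9849). Timp2 had the fewest genes at an r over 0.95, 25 against 42 to 218 for the others, with Il11ra1 and Wars closest (0.9794 and 0.9712).

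Some of the 9 genes overlap another gene in the GENCODE annotation of GRCm38, and no source used here gives the strand used in counting. Timp3 shares 1733 exon bases with Syn3 on the opposite strand, which held 23, 16 and 34 counts over the untreated, IL-4 and IL-27 libraries, against 8201, 7381 and 46936 for Timp3. Mmp19 shares 789 exon bases with Tmem198b, which held 2913, 3147 and 4714 counts against 18659, 22040 and 64620 for Mmp19. Mmp12 shares 157 with Mmp1b, which held 3 counts in all. Reads in the shared bases cannot be assigned to one gene from these tables, so these levels carry that uncertainty. Timp1 lies within Syn1 on the opposite strand and shares no exon bases with it.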

How the data were processed

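Per the labels' protocols, TRIzol was used to extract RNA and a VAHTS kit to make polyA libraries. Both deposited tables cover 16200 genes and all 9 libraries. The first holds raw counts of reads per gene, deposited without normalization. Per the submitters' processing notes, the build was GRCm39 and the tools were fastp, HISAT2 and HTSeq, with no version or setting. The deposited FPKM values were made by the authors from the same counts: dividing them gave whole gene lengths within 0.001 bases for 100% of genes. No source used here gives the counting strand, the annotation or the handling of reads shared between genes.

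The count model was fitted with edgeR 4.0.16 (R 4.3.3): TMM factors (0.918 to 1.065), filterByExpr with a minimum count of 10, 1 quasi-likelihood fit of group over all 9 libraries, two-sided tests, and Benjamini-Hochberg adjustment over all 12587 tested genes of each of 3 comparisons, called at an adjusted p under 0.05. The SE is the log2 fold change over the root of the F statistic and is approximate. Values in text are means with SDs over 3 libraries, and total counts were 34577188 to 37951827 per library. Within a group, the fitted coefficient of variation was 0.165. The procedure was tested on simulated data.

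Members and gene lists were chosen with earlier results of these data known. Named genes are all 9 members, up to 3 called genes with the smallest adjusted p per list and comparison, and the 2 genes most alike to each member; others were chosen after their values were seen. Some genes that belong to these lists are not reported here. Promoter windows come from RefSeq on GRCm38.p6, and no coordinates were moved between builds. Transcript GC content was available for 12330 of the 12587 tested genes. Alternatives were RLE factors, DESeq2 1.42.0, other filters, limma 3.58.1 on log2(FPKM + 1), a fit of 2 groups, a replicate block, and libraries left out.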

Additional observations from a re-analysis of the deposited data

How the results depend on the processing

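The members, the pathway genes named by the rule and some further genes were refitted under 17 alternatives, or 16 for Itga3 and Mmp17, which a filter on CPM above 1 left out. Since the members were chosen by these differences, their calls are listed as a description. On the log2(FPKM + 1) scale, which understates changes of low genes, Mmp8 differed by 1.57 between IL-4 and untreated and by -1.81 between IL-27 and IL-4 cells. Leaving out 1 library at a time gave 1 to 2 members higher and 1 to 2 lower in IL-4 against untreated, 0 to 1 lower in IL-27 against untreated and 1 to 2 lower in IL-27 against IL-4 cells. The lower call of Mmp8 in IL-27 against untreated cells was lost without untreated replicate 1 or 3 or IL-27 replicate 1 or 2, in the fit of 2 groups (0 members lower) and with limma on log2(FPKM + 1) (0 members lower). The Timp2 call against untreated was lost without IL-27 replicate 2, and that against IL-4 without IL-4 replicate 2 or 3 or any IL-27 library. With limma, 2 members were lower in IL-4 against untreated cells. The other pathway genes are the 42 tested in the plasminogen system, integrin, metalloproteinase, MMP inhibitor, ADAM and ADAMTS lists, without the matrix and AP-1 lists. With all libraries 7, 3 and 11 of them were lower in IL-4 against untreated, IL-27 against untreated and IL-27 against IL-4 cells. Of all tested genes 12.0%, 15.1% and 21.0% were lower there. Leaving out 1 library gave 3 to 10 lower in IL-4 and 1 to 3 lower in IL-27 against untreated cells. In IL-27 against IL-4 cells it gave 7 to 11 lower. The fit of 2 groups gave 3 lower in IL-4 against untreated cells and 984 lower of all genes. Without both libraries that stood apart, all genes called were 3061 higher and 2848 lower in IL-4 against untreated, 3089 and 3224 in IL-27 against untreated, and 3560 higher in IL-27 against IL-4 cells. Members were then 3 higher and 3 lower, 2 lower, and 2 lower in these comparisons, and other pathway genes 16 higher and 11 lower after IL-4 and 7 lower after IL-27.

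The log2 difference of Adamts10 in IL-4 against untreated cells ranged from -0.293 to 0.382 with 1 library left out, below 0 without untreated replicate 3 (-0.099) or IL-4 replicate 1, and was -0.014 without both libraries. Mmp28 ranged from -0.95 to 0.312 in the same comparison, above 0 without untreated replicate 2. Eno1 in IL-27 against untreated cells ranged from -0.251 to 0.06, above 0 without untreated replicate 2, and was 0.059 without both. Itgav in IL-27 against IL-4 cells ranged from -0.024, without IL-4 replicate 1, to 0.205, and was -0.03 without both. None of these 4 genes was called where its difference was reversed. Among members near 0, Mmp12 in IL-27 against untreated cells (0.016) turned to -0.124 without untreated replicate 2, to -0.026 without IL-27 replicate 2 and, called there, to -0.124 without both libraries. In IL-4 against untreated cells Plau (0.072) turned to -0.041 and Timp1 (0.032) to -0.035 without IL-4 replicate 1, and Timp1 to -0.019 without both. The cause was not tested. Same-numbered libraries correlated from -0.809 to 0.682 in their deviations over 9553 genes. The libraries that stood apart weigh on these correlations, which therefore cannot show whether same-numbered libraries share an origin. With the replicate block, 3 other pathway genes were lower in IL-4 against untreated cells instead of 7, and Timp2 lost its call in IL-27 against IL-4 cells. Depth limits Mmp8 most, at 30 to 59 counts per untreated or IL-27 library.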
